A study of Mus musculus with 12 samples.

Results

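The 5 mouse T cell receptor beta variable segments TRBV12-1, TRBV12-2, TRBV16, TRBV17 and TRBV26 encode the receptor chains known as Vbeta5.2, Vbeta5.1, Vbeta11, Vbeta9 and Vbeta3. They were chosen by name, as segments classically removed from the repertoire by endogenous superantigens, out of 24 TRBV segments with productive reads. Their reads were those of beta chain (TRB) clonotypes whose best V hit was a member. Productive clonotypes have a complete CDR3, the loop formed where V, D and J segments join, with no frame shift or stop codon. The members held 224544 productive reads in 103745 clonotypes over 12 libraries, and 3149 out-of-frame reads in 2183 clonotypes.

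Thymocytes were sorted as CD4 single-positive (CD4SP) or CD8 single-positive (CD8SP) cells from Chrna9-/- mice (KO) and wild-type (WT) mice. Chrna9 encodes the alpha 9 subunit of nicotinic acetylcholine receptors. The groups were KO CD4SP, WT CD4SP, KO CD8SP and WT CD8SP, with 3 libraries a group. The 6 mice formed KO and WT pairs, 2 pairs of males and 1 of females. Each CD4SP sample held 1000000 sorted cells and each CD8SP sample 330000. Libraries of the same genotype and number were taken as 1 mouse. The strain, the age and the number of the female pair are not given in the sources used here, nor is whether the mice carry an endogenous superantigen. Chrna9 itself cannot be read from receptor chains, which leaves the genotype labels unchecked here.

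Superantigens encoded by mouse mammary tumour proviruses are presented by MHC class II molecules and bind the V region of the beta chain, largely whatever the CDR3. Developing thymocytes with a bound Vbeta are deleted, which is a textbook form of negative selection, and in mice this depends on the class II molecule I-E for several of these Vbeta families. CD4SP thymocytes are selected on MHC class II and CD8SP thymocytes on class I. A joint that is out of frame makes no protein and persists beside a productive joint on the other chromosome, so its segment use is commonly read as the level before selection.

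Superantigens bind the V region at its side, where CDR2 and a neighbouring loop lie. The stretch printed for each member runs from CDR1 to the end of CDR2 and does not hold that loop. It is the most frequent sequence in the deposited clonotypes, on the coding strand, with CDR1 and CDR2 in capitals and the framework between them in lower case. All 5 segments lie on chromosome 6 (mm10, positions from the RefSeq table of GRCm38.p6): TRBV12-1 at chr6:41113567-41114067, TRBV12-2 at chr6:41118864-41119364, TRBV16 at chr6:41151791-41152230, TRBV17 at chr6:41163092-41163556 and TRBV26 at chr6:41227525-41227913.
TRBV12-1: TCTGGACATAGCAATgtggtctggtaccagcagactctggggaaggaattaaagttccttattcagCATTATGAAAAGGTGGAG
TRBV12-2: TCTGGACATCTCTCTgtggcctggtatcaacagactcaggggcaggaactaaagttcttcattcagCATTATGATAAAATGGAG
TRBV16: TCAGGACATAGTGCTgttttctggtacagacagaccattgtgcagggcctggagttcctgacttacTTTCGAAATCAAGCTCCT
TRBV17: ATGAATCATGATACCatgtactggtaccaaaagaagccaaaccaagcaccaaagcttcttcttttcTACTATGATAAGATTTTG
TRBV26: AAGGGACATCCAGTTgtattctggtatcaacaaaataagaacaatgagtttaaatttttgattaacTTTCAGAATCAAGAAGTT

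TRBV12-1 and TRBV12-2 were near copies, identical at 253 of 285 aligned bases (88.8%) from framework 1 to the germline start of CDR3, although no 2 members shared a CDR1 or a CDR2. All other pairs were identical at 46.9% to 57.2% of bases. No member read had a tied V hit.

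The depth was 74021 to 104434 productive TRB reads in CD4SP libraries and 92648 to 134169 in CD8SP libraries. Out-of-frame reads were far fewer, 1457 to 2272 in CD4SP and 1221 to 1813 in CD8SP libraries. They made up 1.82% to 2.20% of TRB reads with a covered CDR3 in CD4SP and 1.30% to 1.44% in CD8SP. The cause of that difference was not tested. The 95% Wilson interval of a member's share in 1 library reached at most 0.169 percentage points to either side for productive reads, but 1.74 points for out-of-frame reads. Reads carry no molecular identifiers, so these intervals cover counting error only. The sort used CD4 and CD8 alone and can hold other cells. The invariant alpha chain of natural killer T (NKT) cells was 5.26% to 8.49% of productive TRA reads in CD4SP and 0.0495% to 0.0897% in CD8SP libraries. The alpha chain of mucosal-associated invariant T cells was at 0.0126% to 0.0403% in CD4SP and 0.0244% to 0.0464% in CD8SP.

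Productive use of the members differed between the cell types in every mouse. Together they took 10.9% at the lowest, 11.1% at the median and 11.3% at the highest of productive reads in CD4SP libraries, against 21.9%, 23.3% and 24.9% in CD8SP libraries. TRBV12-1, TRBV12-2, TRBV16 and TRBV17 were lower in CD4SP, and TRBV26 was higher in CD4SP. For each of the 5 the ranges of the cell types did not overlap. Overlap of ranges was counted for the members only, here and below, so it marks no trait particular to them. Outside the members, TRBV13-3, TRBV14 and TRBV29 were also lower in CD4SP in 6 of 6 mice, and TRBV15, TRBV19, TRBV24 and TRBV31 higher in 6 of 6. TRBV31 averaged 21.5% of productive reads in CD4SP and 5.57% in CD8SP. Shares are parts of a whole, so a larger share of TRBV31 leaves less for all other segments. How much of the members' difference goes with TRBV31 was not tested.

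TRBV12-1, the segment of Vbeta5.2, took 2.91%, 3.06% and 3.28% (lowest, median and highest) of productive reads in CD4SP, against 7.48%, 8.56% and 9.92% in CD8SP. Its log2 fold change of CD4SP over CD8SP was -1.50 (SE 0.029, n = 6 mice, adjusted p = 1.16e-15, edgeR). TRBV12-2, the segment of Vbeta5.1, was at 1.26%, 1.37% and 1.53% in CD4SP, against 3.28%, 3.72% and 4.22% in CD8SP. It differed nearly as much as its near copy, by -1.44 (SE 0.037, adjusted p = 3.10e-14, edgeR), and both were lower in CD4SP in 6 of 6 mice.

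TRBV17, the segment of Vbeta9, showed the most negative change among the members. It was at 1.84%, 1.92% and 2.01% in CD4SP, against 5.69%, 6.04% and 6.33% in CD8SP, a log2 fold change of -1.65 (SE 0.030, adjusted p = 5.03e-16, edgeR). TRBV16, the segment of Vbeta11, was at 1.09%, 1.17% and 1.22% in CD4SP, against 1.78%, 2.22% and 2.53% in CD8SP. Its change was -0.91 (SE 0.057, adjusted p = 1.18e-09, edgeR), and its 6 CD8SP libraries spread more widely than its CD4SP libraries. TRBV26, the segment of Vbeta3, stood apart with 3.31%, 3.61% and 3.72% in CD4SP, against 2.54%, 2.74% and 2.97% in CD8SP. It was higher in CD4SP in 6 of 6 mice, by 0.37 (SE 0.032, adjusted p = 3.97e-08, edgeR).

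**Figure D1:**
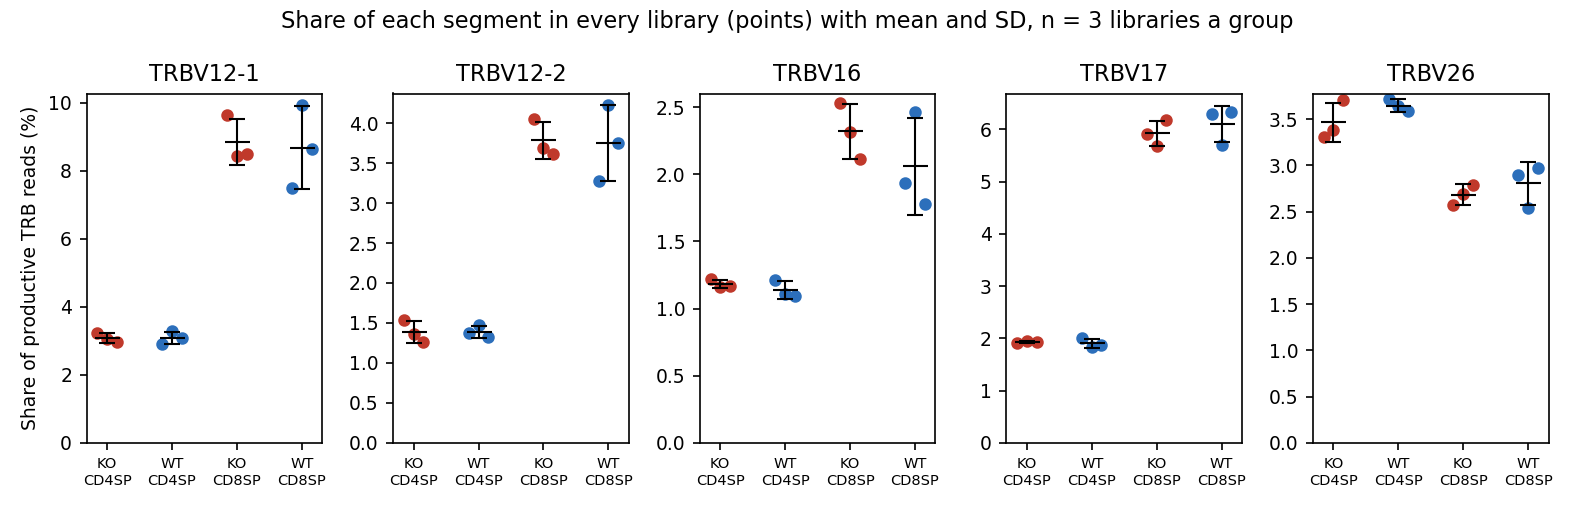
Share of productive TRB reads (%, y axis from 0, own scale per panel) of each member in KO CD4SP, WT CD4SP, KO CD8SP and WT CD8SP thymocytes. Points are libraries and bars the mean and SD of 3; TRBV12-1, TRBV12-2, TRBV16 and TRBV17 sit lower in CD4SP and TRBV26 higher, while KO and WT overlap within each cell type.

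These calls stand against a table in which most segments differed. Of 35 V and J segments tested by edgeR's quasi-likelihood test with the mouse as a block, 34.3% were lower in CD4SP and 51.4% higher, at a Benjamini-Hochberg adjusted p under 0.05. In either direction 85.7% were called, and the members' 4 lower and 1 higher are to be read against those shares. Their median log2 fold change was -1.44, beside 0.16 over all segments tested. The size of TRBV26 moved with the setting but stayed past the threshold. It was 0.12 (adjusted p = 0.0162) without clonotypes of 1 read, 0.21 with DESeq2, 0.24 with TMM scaling and 0.17 without the V segments that pair with the invariant NKT chain. TRBV26 is not among those V segments, so the last setting changed only the total its reads were set against.

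In the comparison list of 5 other segments that superantigens are known to delete, TRBV13-3, TRBV15, TRBV19, TRBV24 and TRBV29, 2 were lower in CD4SP and 3 higher. TRBV29, the segment of Vbeta7, was lower by -1.05 and TRBV13-3, of Vbeta8.1, by -0.19. TRBV15 (0.13), TRBV19 (0.43) and TRBV24 (0.85) were higher in CD4SP, and the list's median was 0.13. TRBV24 lay near the floor, at a mean of 0.0439% of productive reads in CD4SP and 0.0246% in CD8SP, and bears little weight. The share profile most like that of the summed members over the 12 libraries was that of TRBV29, with a root mean square difference of centred log2 shares of 0.107, followed by TRBV14 (0.367) and TRBV13-1 (0.388). TRBV12-1 and TRBV12-2 were closest to each other (0.0552), whereas the closest profile was that of a segment outside the members for TRBV17 (TRBV14, 0.105), TRBV16 (TRBV29, 0.196) and TRBV26 (TRBV20, 0.0483). TRBV14 averaged 2.24% of productive reads in CD4SP and 7.76% in CD8SP libraries.

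Among out-of-frame reads the members' ranges overlapped between the cell types. Together they took 13.5%, 14.3% and 16.2% of out-of-frame reads in CD4SP, against 12.8%, 16.6% and 17.9% in CD8SP, and each of the 5 overlapped as well. edgeR called 0 of the 5 in CD4SP against CD8SP out-of-frame reads, where it called 14.7% of 34 segments (2.94% lower and 11.8% higher). Of the members, 2 had an unadjusted p under 0.05, and 0 were called by DESeq2. The log2 fold changes were -0.23 for TRBV12-1, -0.42 for TRBV12-2, 0.49 for TRBV16, -0.09 for TRBV17 and -0.23 for TRBV26. Their 95% intervals ran from -0.41 to -0.05 for TRBV12-1, from -0.94 to 0.10 for TRBV12-2, from 0.03 to 0.94 for TRBV16, from -0.41 to 0.24 for TRBV17 and from -0.62 to 0.15 for TRBV26. Leaving out KO replicate 3 brought 2 members past the threshold, where 5 of 35 segments were then higher and 2 lower, TRBV12-1 at -0.33 (adjusted p = 0.00422, edgeR) and TRBV16 at 0.72 (adjusted p = 0.0115, edgeR), which lies opposite to its productive difference.

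**Figure D2:**
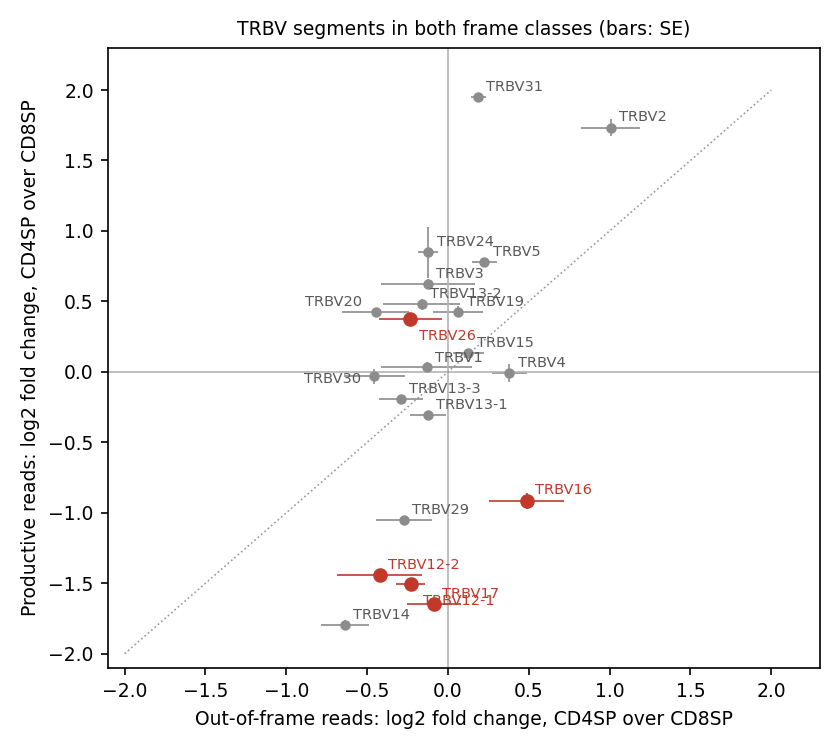
Log2 fold change of CD4SP over CD8SP for each TRBV segment tested in both classes, out-of-frame reads on the x axis and productive reads on the y axis, with SE bars, members in red and the dotted line at equality. TRBV12-1, TRBV12-2, TRBV16 and TRBV17 lie between -1.65 and -0.91 on the y axis and between -0.42 and 0.49 on the x axis; TRBV14 is the grey point lowest on both axes.

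The near copies stood further apart among out-of-frame than among productive reads. TRBV12-1 took 5.83%, 7.30% and 9.12% of out-of-frame reads in CD4SP and 6.94%, 8.59% and 10.8% in CD8SP. TRBV12-2 took 0.465%, 0.842% and 1.08% in CD4SP and 0.901%, 1.08% and 1.26% in CD8SP. The ratio of TRBV12-1 to TRBV12-2 was 2.23 ± 0.103 among productive and 10.02 ± 4.60 among out-of-frame reads in CD4SP, and 2.32 ± 0.0407 and 8.19 ± 2.27 in CD8SP (SD, n = 6). The ranges of the 2 ratios did not overlap in either cell type, and the out-of-frame ratio rests on 8 to 21 reads of TRBV12-2 in a library.

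Between productive and out-of-frame reads the members moved differently in the 2 cell types. In CD4SP, productive use was lower than out-of-frame use for TRBV12-1 (log2 fold change -1.28, SE 0.082, adjusted p = 8.07e-35, edgeR), TRBV17 (-0.55, SE 0.114, adjusted p = 4.56e-06) and TRBV16 (-0.41, SE 0.143, adjusted p = 0.00618). The direction held in 6, 6 and 4 of 6 CD4SP libraries in that order. TRBV12-2 (0.76, SE 0.169) and TRBV26 (0.97, SE 0.121) were higher among productive reads in 6 of 6 libraries. Of 36 segments tested in CD4SP, 36.1% were lower and 38.9% higher among productive reads, 75% in either direction. TRBV16 lost its call without WT replicate 1 (-0.35, adjusted p = 0.0521) or KO replicate 2 (-0.29, adjusted p = 0.0734), and moved to -0.17 (adjusted p = 0.601) without clonotypes of 1 read. That last setting also ended the call of TRBV12-2 (0.66, adjusted p = 0.0743).

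In CD8SP no member was called lower among productive reads and 4 were called higher by edgeR, where 36.1% of 36 segments were lower, 41.7% higher and 77.8% either. TRBV12-2 rose by 1.78 (SE 0.098), TRBV17 by 1.00 (SE 0.105), TRBV16 by 0.96 (SE 0.197) and TRBV26 by 0.37 (SE 0.105), each in 6 of 6 libraries. TRBV12-1 was at 0.01 (95% interval -0.24 to 0.26), and higher in 3 of 6 libraries. The call of TRBV26 ended when 1 segment was left out, an alternative chosen after seeing the data. Without TRBV24, a segment at 10.6% to 13.6% of out-of-frame reads but at most 0.0537% of productive reads, TRBV26 was at 0.17 (adjusted p = 0.177). Leaving TRBV24 out moved the median log2 fold change of all segments from 0.04 to -0.13 in CD8SP. In the CD4SP step that median went from -0.02 to -0.15, so the shift was not particular to TRBV26.

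**Figure D3:**
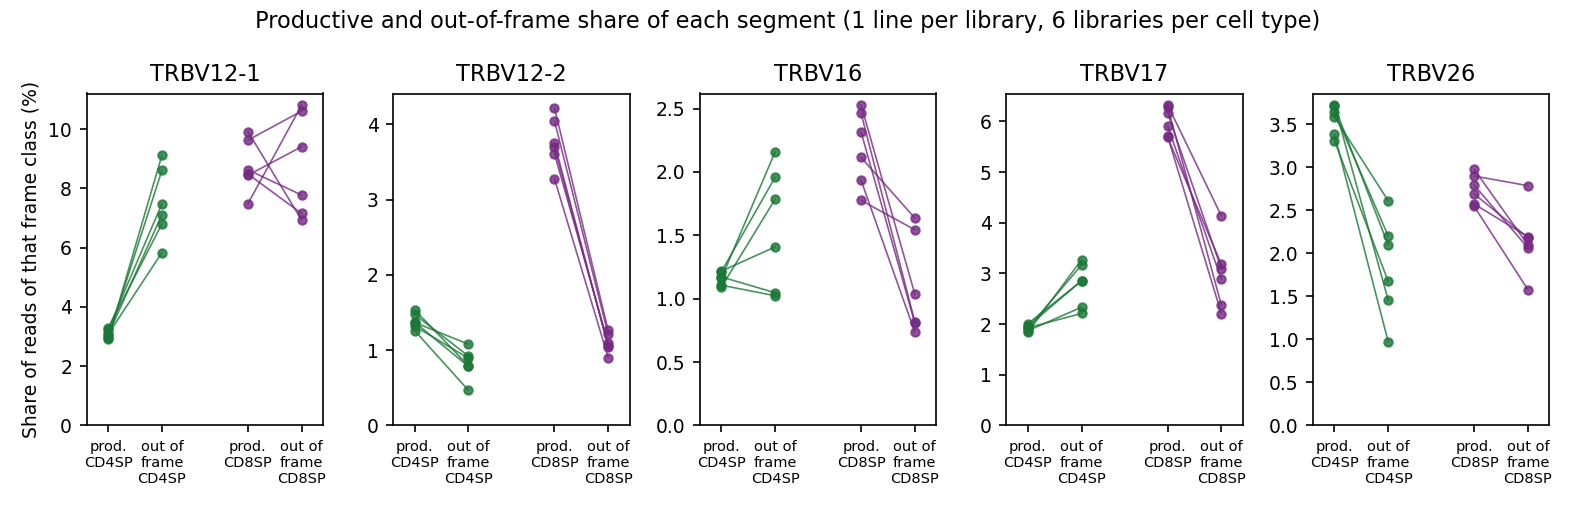
Share (%) of each member among productive and out-of-frame reads, y axis from 0 with its own scale per panel; each line joins the 2 classes of 1 library, 6 CD4SP libraries in green and 6 CD8SP libraries in purple. TRBV12-1 and TRBV17 fall below their out-of-frame share in each CD4SP library, whereas TRBV12-2, TRBV16, TRBV17 and TRBV26 lie above it in each CD8SP library.

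The difference between the cell types in that step was itself tested, with each library as a block. The productive-to-out-of-frame ratio in CD4SP against CD8SP was lower for TRBV17 (log2 -1.56, SE 0.161, adjusted p = 9.38e-09, edgeR), TRBV16 (-1.39, SE 0.242, adjusted p = 3.16e-05), TRBV12-1 (-1.27, SE 0.106, adjusted p = 1.75e-10) and TRBV12-2 (-1.02, SE 0.234, adjusted p = 0.000698). For these 4 the ratio was lower in CD4SP in 6 of 6 mice and the ranges did not overlap, which was counted for the members only. TRBV26 was higher (0.61, SE 0.198, adjusted p = 0.0125), in 5 of 6 mice, with overlapping ranges. Of 36 segments tested, 25% were lower and 30.6% higher, 55.6% in either direction. The call of TRBV26 ended with TMM scaling (0.44, adjusted p = 0.0697), without clonotypes of 1 read (0.20, adjusted p = 0.823) and without WT replicate 1 (0.48, adjusted p = 0.0837). With TMM scaling 11 segments were lower and 5 higher, against 9 and 11 here, so the split over all segments depends on the scaling while the 4 lower members passed under both. In the comparison list, TRBV29 was lower (-0.78) and TRBV24, which has very few productive reads, higher (0.98). The pattern was not particular to the members. TRBV14, on neither list, lay below its out-of-frame share in 6 of 6 CD4SP libraries and above it in 6 of 6 CD8SP libraries. Its ratio was lower in CD4SP in 6 of 6 mice.

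Some out-of-frame clonotypes lay close to productive ones. Those 1 base away from a productive CDR3 held 2.42% to 10.2% of the members' out-of-frame reads in CD4SP libraries and 9.30% to 13.9% in CD8SP libraries. Without them the step differed between cell types for the same number of members, 5 of 5. CDR3 lengths of the members' out-of-frame reads were split near evenly between the 2 frame-shift classes, with 43.2% to 51.9% in the class of remainder 1, whereas TRBV24 had 87.8%.

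The lower CD4SP share was spread over J segments. Of the 60 pairs of a member with a J segment, 48 were lower in CD4SP and 9 higher, where 36.5% of 249 V-J pairs tested were lower, 43.4% higher and 79.9% either. TRBV12-1, TRBV12-2 and TRBV17 were lower with each of 12 J segments, and TRBV16 with 11 of 12. The log2 fold changes ran from -2.22 (TRBJ1-2) to -1.08 (TRBJ2-3) for TRBV12-1, from -2.26 (TRBJ2-1) to -0.51 (TRBJ1-4) for TRBV12-2 and from -2.004 (TRBJ2-1) to -0.86 (TRBJ1-4) for TRBV17. TRBV16 ran from -1.53 (TRBJ1-2) to -0.47 (TRBJ2-2) among its called pairs. TRBV26 was higher in CD4SP with 9 J segments, by at most 0.92 (TRBJ2-4), but lower with TRBJ2-1 (-0.37, SE 0.078, adjusted p = 4.41e-05, edgeR).

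**Figure D4:**
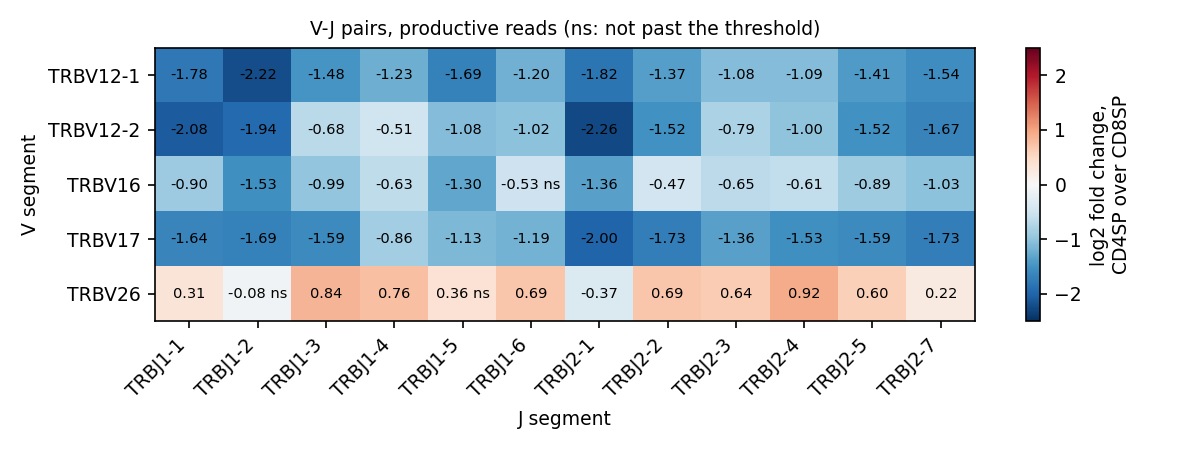
Log2 fold change of CD4SP over CD8SP productive reads for each pair of a member (rows) with a J segment (columns), blue for lower and red for higher in CD4SP, ns for pairs not past the threshold. The rows of TRBV12-1, TRBV12-2, TRBV16 and TRBV17 are below 0 throughout; TRBV26 is above 0 except with TRBJ1-2 and TRBJ2-1.

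CDR3 loops of several members were shorter in CD4SP than in CD8SP. Over distinct clonotypes TRBV26 loops averaged 13.56 ± 0.039 residues in CD4SP and 13.82 ± 0.029 in CD8SP (SD, n = 6), TRBV16 loops 13.63 ± 0.057 and 13.82 ± 0.043, and TRBV12-1 loops 13.64 ± 0.038 and 13.80 ± 0.015. Each of these was shorter in CD4SP in 6 of 6 mice, while loops of all other TRBV averaged 13.78 ± 0.016 in CD4SP and 13.76 ± 0.014 in CD8SP. Relative to all other TRBV the difference was -0.27, -0.20 and -0.17 residues for TRBV26, TRBV16 and TRBV12-1, and -0.12 for TRBV12-2 (p = 0.03125 each by an exact two-sided permutation of signs, which is as low as 6 mice can give, adjusted p = 0.0417). TRBV17 loops, at 13.89 ± 0.058 in CD4SP and 13.92 ± 0.028 in CD8SP, were longer than the rest in all 12 libraries.

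Hydropathy at residues 6 and 7 of the loop, on the Kyte-Doolittle scale where higher is more hydrophobic, moved in opposite ways. It averaged -1.18 ± 0.056 in CD4SP and -1.33 ± 0.039 in CD8SP for TRBV17, and -1.26 ± 0.027 and -1.42 ± 0.051 for TRBV26, higher in CD4SP in 6 of 6 mice. For TRBV16 it was -1.25 ± 0.047 in CD4SP and -1.02 ± 0.071 in CD8SP, lower in CD4SP in 6 of 6 mice. Each of these 3 differences, relative to all other TRBV, had the same exact permutation p = 0.03125 and adjusted p = 0.0417. J segments of the TRBJ2 cluster were used by 81.0% to 84.5% of TRBV17 clonotypes and 65.4% to 69.9% of TRBV26 clonotypes, against 70.3% to 73.3% for all other TRBV. Across 20 tests, 5 members by 4 measures, 15 passed relative to all other TRBV and 0 passed for the plain CD4SP minus CD8SP difference (12 at an unadjusted p of 0.03125, adjusted p = 0.0521, exact permutation). Only measures at that smallest p can pass, and they pass or fail together, so these counts turn on few measures. Single segments outside the members were not set against the rest in this way. Whether the 15 are more than other segments would give was not tested. With clonotypes weighted by their reads, 14 of the 20 plain differences passed, and 14 relative to all other TRBV. With 5 mice none can pass, since the smallest exact permutation p is then 0.0625.

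**Figure D5:**
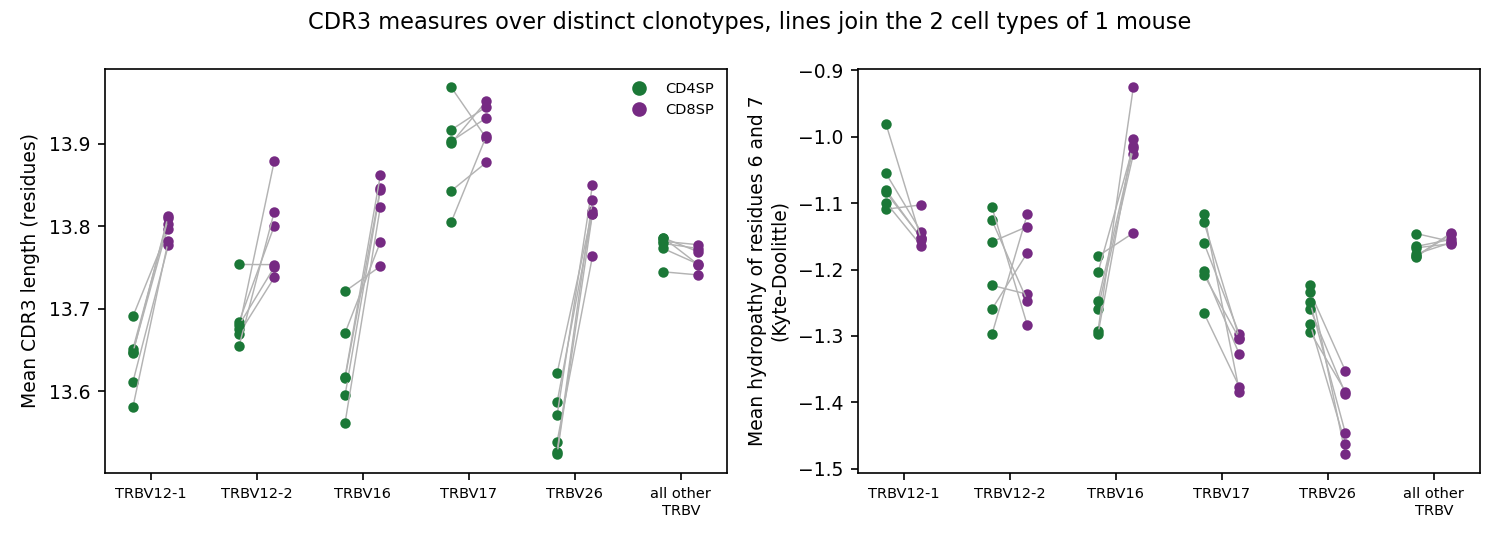
Mean CDR3 length (residues, left) and mean hydropathy of residues 6 and 7 (Kyte-Doolittle, right) over distinct productive clonotypes; lines join CD4SP (green, left) and CD8SP (purple, right) of 1 mouse, and the y axes do not start at 0. TRBV12-1, TRBV16 and TRBV26 loops are shorter in CD4SP in all 6 mice, and hydropathy is lower in CD4SP for TRBV16 but higher for TRBV17 and TRBV26.

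Clonotypes of the members were small. Reads per clonotype averaged 1.37 ± 0.039 in CD4SP and 1.73 ± 0.054 in CD8SP for TRBV26, the lowest of the members, and 1.72 ± 0.074 and 2.82 ± 0.161 for TRBV17, against 1.86 ± 0.076 and 2.49 ± 0.106 for all other TRBV (SD, n = 6). CD8SP samples held fewer sorted cells, and the part of cell number in this measure was not tested. The largest member clonotype had 27 reads. Of distinct CDR3 sequences, 93.8% (TRBV12-1) to 96.9% (TRBV16) were found in 1 library only.

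A CDR3 found in the most libraries is printed for each member to show how much of such a shared loop matches germline V sequence. For TRBV12-2, TRBV16 and TRBV17 another loop was in as many libraries, and the loop with more reads is shown. Capitals run from the start as far as the bases match germline V, and can include D, J or added bases that match. Later bases are in lower case.
TRBV12-1: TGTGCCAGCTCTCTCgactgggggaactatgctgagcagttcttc
TRBV12-2: TGTGCCAGCTCTCTCtatgaacagtacttc
TRBV16: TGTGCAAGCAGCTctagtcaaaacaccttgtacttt
TRBV17: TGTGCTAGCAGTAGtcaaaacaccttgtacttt
TRBV26: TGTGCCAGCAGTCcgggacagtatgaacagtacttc

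The TRBV12-1 loop, joined to TRBJ2-1, was in 4 CD4SP libraries with 10 reads and 6 CD8SP libraries with 33 reads. The TRBV12-2 loop was in 2 CD4SP libraries with 5 reads and 5 CD8SP libraries with 25 reads. The TRBV16 loop had 4 reads in 1 CD4SP library and 27 reads in 5 CD8SP libraries. The TRBV17 loop had 1 read in 1 CD4SP library and 45 reads in 6 CD8SP libraries. The TRBV26 loop had 5 reads in 4 CD4SP libraries and 13 reads in 5 CD8SP libraries. These reads come from cell types of unequal depth, and other widely shared loops ran the other way. A TRBV17 loop in as many libraries had 14 reads in CD4SP and 8 in CD8SP, and the next most shared TRBV26 loop, in 8 libraries, had 13 reads in CD4SP and 2 in CD8SP.

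Exact nucleotide clonotypes of the members also recurred in both libraries of a mouse, 165 on average (118 to 206). Against the CD8SP libraries of other mice the same CD4SP libraries shared 57 to 141. The number was highest within the mouse in 6 of 6 mice. It came to 2.77% of the members' CD4SP clonotypes and 1.56% of their CD8SP clonotypes, against 3.31% and 4.0% for all other TRBV. Where the shared clonotypes came from was not tested.

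KO and WT mice were set against each other to ask whether Chrna9 bears on segments that are classic readouts of deletion. In CD4SP the members together took 11.2%, 10.9% and 11.03% of productive reads in KO mice, against 11.2%, 11.3% and 10.9% in WT mice. TRBV12-1 was at 3.24%, 3.05% and 2.96% in KO, against 2.91%, 3.28% and 3.07% in WT. TRBV17 was at 1.92%, 1.95% and 1.93% in KO, against 2.01%, 1.84% and 1.87% in WT. TRBV12-2 was at 1.53%, 1.37% and 1.26% in KO, against 1.37%, 1.47% and 1.32% in WT. KO and WT overlapped for each of the 5 members. TRBV16 was at 1.22%, 1.16% and 1.17% in KO, against 1.21%, 1.11% and 1.09% in WT, the only member higher in KO in 3 of 3 same-numbered pairs. TRBV26 was at 3.31%, 3.38% and 3.71% in KO, against 3.72%, 3.64% and 3.58% in WT.

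edgeR called 0 of the 5 members between genotypes in CD4SP (0% of 35 segments). At an unadjusted p under 0.05 there were 0 members and 1 segment, and by DESeq2 0 members. The log2 fold changes of KO over WT in CD4SP, with 95% intervals, were 0.00 (-0.17 to 0.18) for TRBV12-1, 0.00 (-0.19 to 0.19) for TRBV12-2, 0.06 (-0.14 to 0.25) for TRBV16, 0.02 (-0.09 to 0.14) for TRBV17 and -0.08 (-0.20 to 0.05) for TRBV26. Differences within these intervals were not detectable with 3 mice a group.

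In CD8SP the members together took 24.7%, 22.8% and 23.2% in KO, against 21.9%, 24.9% and 23.5% in WT. TRBV12-1 was at 9.63%, 8.44% and 8.49% in KO, against 7.48%, 9.92% and 8.63% in WT, and TRBV17 at 5.91%, 5.69% and 6.17% in KO, against 6.29%, 5.71% and 6.33% in WT. TRBV17 was the only member lower in KO in 3 of 3 same-numbered pairs. TRBV16 was at 2.53%, 2.32% and 2.12% in KO, against 1.94%, 2.47% and 1.78% in WT. In TRBV12-1, TRBV12-2 and TRBV16 alike, WT replicate 2 was the highest of the 3 WT libraries.

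In CD8SP too, edgeR called 0 of the 5 members between genotypes (0% of 35 segments). At an unadjusted p under 0.05 there were 0 members and 1 segment, and by DESeq2 0 members. The log2 fold changes of KO over WT were 0.03 (95% interval -0.13 to 0.20) for TRBV12-1, 0.01 (-0.16 to 0.18) for TRBV12-2, 0.17 (-0.00216 to 0.35) for TRBV16, -0.04 (-0.15 to 0.06) for TRBV17 and -0.06 (-0.19 to 0.06) for TRBV26. WT replicate 2 decided this count. Without that mouse 3 of 35 segments were called higher in KO and 2 lower, and 2 of the higher ones were members, TRBV16 by 0.33 (adjusted p = 6.46e-05, edgeR) and TRBV12-1 by 0.16 (adjusted p = 0.0245, edgeR). Without only its CD8SP library TRBV16 was higher by 0.33 (adjusted p = 0.000507, edgeR).

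The genotype effect in CD4SP minus that in CD8SP was called for 0 of the 5 members by edgeR (0% of 35 segments, and 0 members before adjustment) and for 0 by DESeq2. The differences were -0.03 for TRBV12-1, -0.02 for TRBV12-2, -0.12 for TRBV16, 0.07 for TRBV17 and -0.01 for TRBV26, with adjusted p between 0.825 and 0.913. Without WT replicate 2, TRBV16 was called at -0.28 (adjusted p = 0.0498, edgeR). The CD4SP and CD8SP differences of the 5 members were the same in number and direction within KO mice alone and within WT mice alone, 4 lower and 1 higher in CD4SP.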

How the data were processed

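Beta chain repertoires of sorted mouse thymocytes came from SMARTer TCR libraries read on the MiSeq platform, and MiXCR (version not given in the sources used here) assembled the clonotypes, per the labels' design text. The submitters' processing notes name the build mm10. Per the file headers, the authors deposited counts of whole reads for each clonotype. Each clonotype's deposited fraction served only to check those counts.

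Reads were summed per V and J segment of the best hit, separately for productive, out-of-frame and in-frame stop clonotypes. Clonotypes without a covered CDR3 (0.513% to 0.837% of TRB reads) were left out. Counts were tested with edgeR 4.0.16 in R 4.3.3 (glmQLFTest, library size set to the reads of the class, filterByExpr by group, Benjamini-Hochberg adjustment, threshold 0.05). The mouse was a block between cell types, the library between frame classes, and the pair number between genotypes, because the design text names pairs and a paired comparison. DESeq2 1.42.0 and other alternatives were run beside it. CDR3 measures were compared by exact sign-flip permutation over 6 mice. Other steps used Python 3.11.15, pandas 2.3.3, scipy 1.17.1 and matplotlib 3.10.9. Nothing states that libraries of a group came from separate litters, so p-values measure the spread between these mice.

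Members and lists were chosen with earlier results of these data known. The text names each member, the 5 segments of the comparison list and the 3 segments closest in profile. It also names segments a result turned on or was set beside, chosen after their values were seen. Recombination signals and promoters were not analysed here. Tests were checked on simulated data, with 1 small spread common to all segments and no differences between mice. Recovery may be lower for members that varied more between mice, such as TRBV16 in CD8SP. Of segments changed 1.25-fold, 3 of 4 were recovered for KO against WT in CD8SP and 4 of 4 in CD4SP, among 35 segments. For the difference of genotype effects 2 of 4 were recovered at 1.25-fold and 2 of 3 at 2-fold, among 35 segments, and for the CD8SP step between frame classes 1 of 4 at 1.25-fold, among 36.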

Additional observations from a re-analysis of the deposited data

Results flagged for a closer look

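The step from out-of-frame to productive use differed between CD4SP and CD8SP by a test of the difference itself for each member. The log2 difference, CD4SP minus CD8SP, was -1.27 for TRBV12-1, -1.02 for TRBV12-2, -1.39 for TRBV16, -1.56 for TRBV17 and 0.61 for TRBV26 (edgeR, with 25% of 36 segments lower and 30.6% higher). In WT mice alone TRBV26 was at 0.39 (adjusted p = 0.198, edgeR), and in KO mice alone TRBV12-2 was at -0.91 (adjusted p = 0.0947, edgeR). No library lay apart from the other 5 in any of the 20 sets of member values tested for a distant sample.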

How the results depend on the processing

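The 5 calls of CD4SP against CD8SP in productive reads held under all alternatives run, including TMM and DESeq2, which moved the median of all segments by -0.13 and -0.16; DESeq2 then called 15 segments higher and 16 lower, against 18 and 12. Without clonotypes of 1 read, 3 members were called in the CD4SP step from out-of-frame to productive reads. With in-frame stop clonotypes in place of out-of-frame ones, which number only 55 to 117 reads a library, 0 members were called in CD4SP, 0 in CD8SP and 0 for their difference, and 3 values turned: TRBV12-1 in CD4SP to 0.011, TRBV26 in CD8SP to -0.39 and TRBV12-2 in the difference to 1.96. In out-of-frame reads, CD4SP against CD8SP, leaving out TRBV24, an alternative chosen after seeing the data, gave 1 member (TRBV12-1, -0.25, adjusted p = 0.0489). Leaving out 1 mouse gave 0 to 2 members there, 4 to 5 for the CD4SP step, 4 for the CD8SP step and 4 to 5 for their difference.

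Between genotypes, leaving out 1 mouse or, as an alternative chosen after seeing the data, 1 library gave 0 members in CD4SP, 0 to 2 in CD8SP and 0 to 1 for the interaction, each above 0 only without WT replicate 2. Without the replicate block, 0 members were called in CD4SP and 0 in CD8SP, and with the replicate block in place of the mouse 5 were called between cell types; the block changed no call. Same-numbered KO and WT libraries deviated with correlations of -0.72 to 0.59, so the data do not show the pairing. CD4SP and CD8SP libraries taken as 1 mouse deviated with correlations of 0.15 to 0.78 in KO and -0.03 to 0.35 in WT. These correlations rest on 3 libraries a group, too few to decide either pairing. With clonotypes weighted by reads, 14 of 20 CDR3 measures passed for the plain CD4SP minus CD8SP difference, against 0 with clonotypes counted once. Measures at the smallest exact p pass or fail the adjustment together, so a change in few of them moves this count away from 0. Relative to all other TRBV, leaving out a mouse gave 0 to 0 of 20, since 5 mice cannot pass. In CD8SP, counting each clonotype once brought TRBV12-1 past the threshold (0.19, adjusted p = 0.0386). The causes were not tested. Out-of-frame depth limits the step, with as few as 8 reads of TRBV12-2 and 9 of TRBV16 in a library.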
